A study of Mus musculus with 8 samples.

Results

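TREM2 and DAP12 signalling is described here through 8 genes, taken by symbol from the deposited gene table: Trem2, Tyrobp, Trem1, Treml2, Hcst, Syk, Plcg2 and Inpp5d. All 8 were found among the 51810 genes of the table, and all 8 were among the 16237 genes that passed the filter on low counts. The study sequenced polyadenylated RNA of microglia, the resident macrophages of the brain, from wild-type mice aged 21 or 4 months. The series is titled for the diversity of microglia in aging white matter. The 4 groups, with 2 libraries each, were 21-month white matter, 21-month grey matter, 4-month white matter and 4-month grey matter. White matter here is the corpus callosum, the fibre tract between the hemispheres; the labels name that region for the grey matter samples as well, so the split rests on the sample titles and the tissue label. In all 4 groups myelin was removed on a Percoll gradient and the cells were drawn with magnetic beads against CD11b, which other myeloid cells such as neutrophils and monocytes also carry. Whether both libraries of a group are from different mice is not stated in the labels, so p-values reflect only the variation among these 8 samples, part or all of which may be technical.

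TREM2 is a receptor on the surface of microglia that binds lipids, lipoproteins and cell debris. It has no signalling tail and pairs with DAP12, the product of Tyrobp, whose ITAM motif is phosphorylated by Src-family kinases and then recruits the kinase SYK. Below SYK, phospholipase C gamma 2 (Plcg2) raises calcium, while the lipid phosphatase SHIP1 (Inpp5d) opposes the PI3-kinase arm. TREM1, encoded in the same gene cluster as Trem2, is a DAP12-paired receptor that amplifies inflammatory responses of neutrophils and monocytes. TLT2 (Treml2) is a related receptor of the same gene cluster, found in mice on B cells, macrophages and neutrophils. DAP10 (Hcst) is an adaptor that recruits PI3-kinase and serves the NKG2D receptor of NK and T cells.

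The annotation of GENCODE M21 places Trem1, Trem2 and Treml2 on the plus strand of chromosome 17, in a cluster with Trem3, Treml1 and Treml4, and it places Tyrobp and Hcst next to each other on chromosome 7, on opposite strands and with no overlap. Promoter sequence from RefSeq was matched for 6 of the 8 genes (Trem2, Trem1, Hcst, Syk, Plcg2 and Inpp5d). The 250 bases before the annotated start are shown for Trem2 and Trem1, because these genes of 1 cluster differed in their pattern below, and for Hcst and Inpp5d, because their windows hold the motif searched. Capitals mark AGGAAGT, 1 form of the sites for ETS factors such as PU.1, searched on both strands and chosen after the sequences were seen. The windows are, on GRCm38.p6, chr17:48346151-48346400 on the plus strand for Trem2, chr17:48232489-48232738 on the plus strand for Trem1, chr7:30419855-30420104 on the minus strand for Hcst and chr1:87620062-87620311 on the plus strand for Inpp5d.
Trem2: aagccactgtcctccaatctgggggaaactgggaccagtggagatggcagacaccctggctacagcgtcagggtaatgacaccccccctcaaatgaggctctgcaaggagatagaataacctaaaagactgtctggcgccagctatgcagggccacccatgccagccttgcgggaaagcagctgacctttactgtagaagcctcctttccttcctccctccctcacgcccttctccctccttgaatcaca
Trem1: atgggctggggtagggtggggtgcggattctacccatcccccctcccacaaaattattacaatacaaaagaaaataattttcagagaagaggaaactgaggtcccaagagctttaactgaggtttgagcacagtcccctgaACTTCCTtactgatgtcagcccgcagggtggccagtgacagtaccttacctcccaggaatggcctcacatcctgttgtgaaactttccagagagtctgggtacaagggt
Hcst: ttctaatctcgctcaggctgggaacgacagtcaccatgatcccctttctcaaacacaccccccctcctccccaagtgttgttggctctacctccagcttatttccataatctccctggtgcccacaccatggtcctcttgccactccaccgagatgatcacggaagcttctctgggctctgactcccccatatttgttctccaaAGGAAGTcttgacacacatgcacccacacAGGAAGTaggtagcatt
Inpp5d: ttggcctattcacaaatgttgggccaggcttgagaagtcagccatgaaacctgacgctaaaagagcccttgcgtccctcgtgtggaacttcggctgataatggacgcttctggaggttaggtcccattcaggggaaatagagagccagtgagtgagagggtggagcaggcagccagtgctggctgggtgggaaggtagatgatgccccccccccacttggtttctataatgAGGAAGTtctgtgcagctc
AGGAAGT was found in 3 of the 7 windows of these genes and in 7.69% of all 32851 windows of the same length. It stood at 2 places for Hcst, 46 and 17 bases before the start, at 1 place for Inpp5d, 19 bases before it, and at 1 place on the opposite strand for Trem1, 109 bases before it. This exact string is not in the Trem2 window, though the shorter GGAA within it is. The longer form GAGGAAGT, also searched, was found in 1 of the 7 windows and in 2.44% of all windows. Other variants of the string were not searched.

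Levels are given in CPM, counts scaled to a common library size by TMM, and come from 3273258 to 6315782 counts per library. The 10 microglia markers used, among them P2ry12, Tmem119, Cx3cr1 and Sall1, were detected in every library. Replicate 1 of young (4-month) white matter, called its first library below, was unlike the rest. Oligodendrocyte markers (10 genes) reached a sum of 63569 CPM in it, against 199 to 796 CPM in each of the other 7, and microglia markers (10 genes) a sum of 2497 CPM, against 8668 to 14594 CPM. Its correlations with the other libraries, over genes, were 0.63 to 0.747. Results on 4-month white matter are therefore given with and without it; without it the remaining young white matter library is assumed to vary like the other groups. In bulk RNA, fewer cells of a type and less RNA per cell cannot be told apart.

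No member passed an adjusted p of 0.05 in the fit of all 8 libraries (edgeR's quasi-likelihood test, Benjamini-Hochberg over all genes tested). This held for white over grey matter at 21 months and at 4 months, for 21 over 4 months in white and in grey matter, and for the difference between the aging changes of the regions, and in each of them 0% of the 16237 genes were called. At an unadjusted p under 0.05 the background was 2.35%, 8.91%, 8.1%, 0.733% and 2.8% of genes in these 5 comparisons. Trem1 was the member under it in both region comparisons, Tyrobp in white matter aging, and none in the remaining comparisons. DESeq2 called 0 members as well. It called 0.361%, 3.51%, 2.57%, 0% and 0.383% of the 14977, 14663, 14348, 16237 and 5219 genes to which it gave an adjusted p. A member without an adjusted p counts as not called. Limma with voom quality weights called 0 members, with 0.696% of genes called at 21 months between the regions and 0% in the other 4 comparisons. With the 21-month libraries alone, edgeR called 1.58% of 14717 genes, 0.985% higher and 0.591% lower in white matter, and again 0 members. Fits of the 4 libraries of each other comparison called 0% of genes. Without the first 4-month white matter library, 0.109% of 17509 genes were called between the regions at 21 months, 0.00571% in white matter aging and 0% in the others, and 0 members in any.

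**Figure D1:**
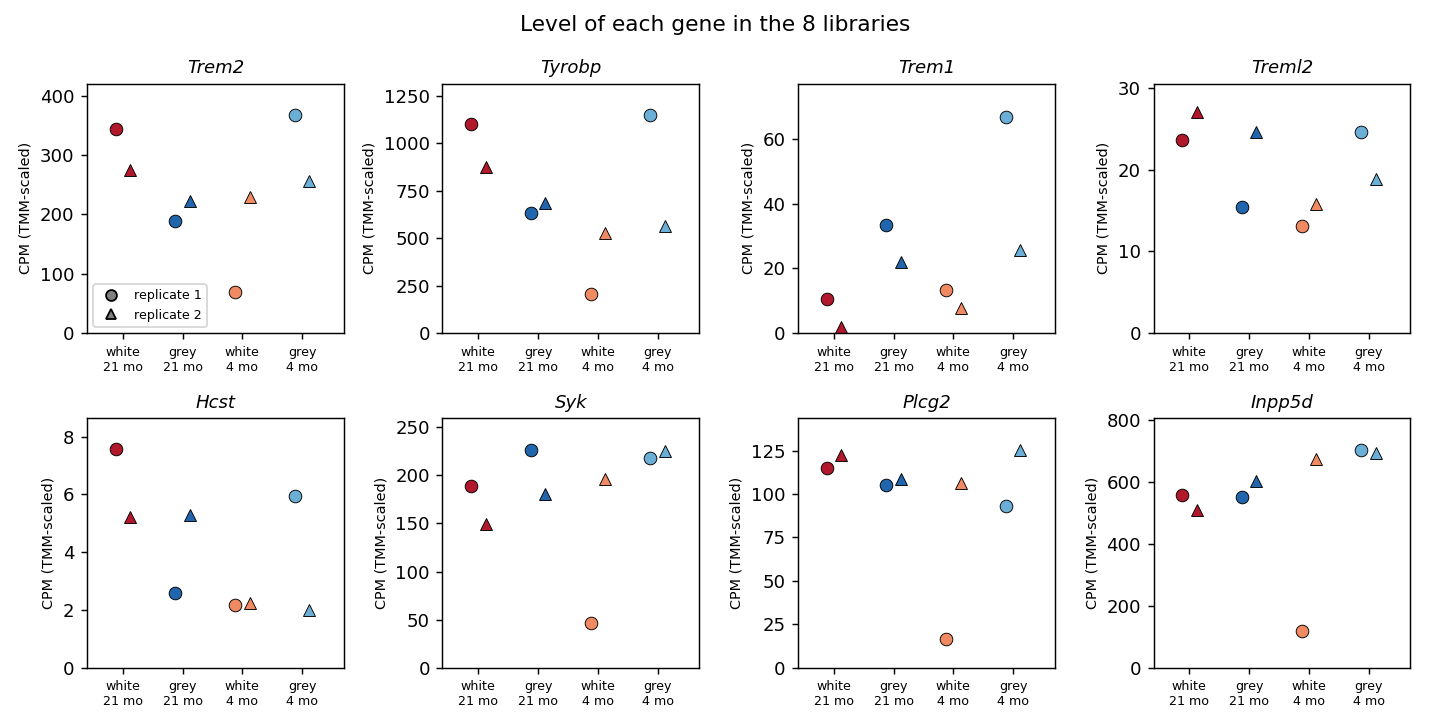
Level of each of the 8 genes in each library, in CPM after TMM scaling, by group; each point is 1 library, circles are replicate 1 and triangles replicate 2, and each panel has its own axis from 0. The first 4-month white matter library is the lowest of all for Trem2 (69.0 CPM), Tyrobp (207 CPM), Syk (46.9 CPM), Plcg2 (16.7 CPM) and Inpp5d (120.3 CPM), and Trem1 is higher in the 4 grey matter libraries (22.1 to 67.0 CPM) than in the 4 of white matter (1.99 to 13.4 CPM).

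Trem2, the receptor itself, was measured at 344 and 274 CPM in 21-month white matter and at 188 and 222 CPM in 21-month grey matter. At 4 months it had 69.0 and 229 CPM in white matter, against 367 and 255 CPM in grey matter. Both old white matter libraries thus lay above both old grey matter libraries, while both young white matter libraries lay below both young grey matter libraries. The group means were 309 ± 49.5 CPM in old white, 205 ± 23.7 CPM in old grey, 149 ± 113 CPM in young white and 311 ± 78.9 CPM in young grey matter (SD, n = 2 each). In order of the means, young grey and old white matter overlapped, as did old grey and young white matter, and only old white and old grey matter did not overlap as neighbours.

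The log2 fold change of Trem2, white over grey matter, was 0.59 ± 0.57 (SE) at 21 months in the fit of all libraries (adjusted p = 1). In the fit of the 21-month libraries alone it was 0.59 ± 0.18, with an unadjusted p of 0.00759 and an adjusted p of 0.182, so it did not pass. At 4 months it was -1.06 ± 0.58 (adjusted p = 0.65), and -0.42 ± 0.31 without the first white matter library (adjusted p = 0.92). The aging change was 1.05 ± 0.58 in white matter (adjusted p = 0.64), or 0.42 ± 0.31 without that library (adjusted p = 1), and -0.60 ± 0.57 in grey matter (adjusted p = 1). The difference between the aging changes was 1.66 ± 0.81 (adjusted p = 1), and 1.02 ± 0.40 without that library (adjusted p = 1).

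Tyrobp, the DAP12 adaptor shared by many myeloid receptors, was the most abundant of the 8 genes per length of transcript. It was measured at 1103 and 875 CPM in 21-month white matter and at 631 and 685 CPM in 21-month grey matter. Young white matter had 207 and 526 CPM, against 1147 and 566 CPM in young grey matter. As with Trem2, white matter lay above grey matter at 21 months and below it at 4 months with no overlap, but the young grey matter libraries differed widely from each other. The means were 989 ± 162, 658 ± 38.3, 366 ± 225 and 856 ± 411 CPM in old white, old grey, young white and young grey matter (SD, n = 2 each), and of the neighbours in order only old grey and young white matter did not overlap.

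White over grey matter, the log2 fold change of Tyrobp was 0.59 ± 0.59 at 21 months (adjusted p = 1), and 0.58 ± 0.18 with the 21-month libraries alone (unadjusted p = 0.00829, adjusted p = 0.19). At 4 months it was -1.22 ± 0.59 (adjusted p = 0.597), or -0.68 ± 0.41 without the first white matter library. Aging gave 1.43 ± 0.59 in white matter (unadjusted p = 0.0452, adjusted p = 0.615), or 0.90 ± 0.42 without that library, and -0.38 ± 0.58 in grey matter. The aging changes differed between the regions by 1.81 ± 0.83 (adjusted p = 1), or by 1.27 ± 0.53 without that library (adjusted p = 1).

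The Tyrobp transcript is short, 597 nt for the longest coding transcript in GENCODE M21, and the libraries differed in how short and long transcripts were represented. The centred log2 level of the 634 tested genes under 1000 nt minus that of the 3376 over 4000 nt was 0.23 and -0.03 in old white matter and -0.18 and -0.07 in old grey matter. It was 0.65 and -0.31 in young white matter and 0.69 and -0.34 in young grey matter, so in each young group the first library stood high and the second low. Over the 7 libraries other than the first of young white matter, Tyrobp was higher wherever this balance was higher, with 1 exception in 1 neighbouring pair (566 CPM at -0.34 and 526 CPM at -0.31). A correction for transcript length in each library, added after the data were seen, gave Tyrobp a log2 fold change of 0.45 ± 0.60 for white over grey matter at 21 months, -0.92 ± 0.61 at 4 months, 1.28 ± 0.61 for aging in white matter and -0.09 ± 0.60 for aging in grey matter. For Trem2, at 1088 nt, these were 0.50, -0.86, 0.95 and -0.42. The directions held, and none of these values passed the test.

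**Figure D2:**
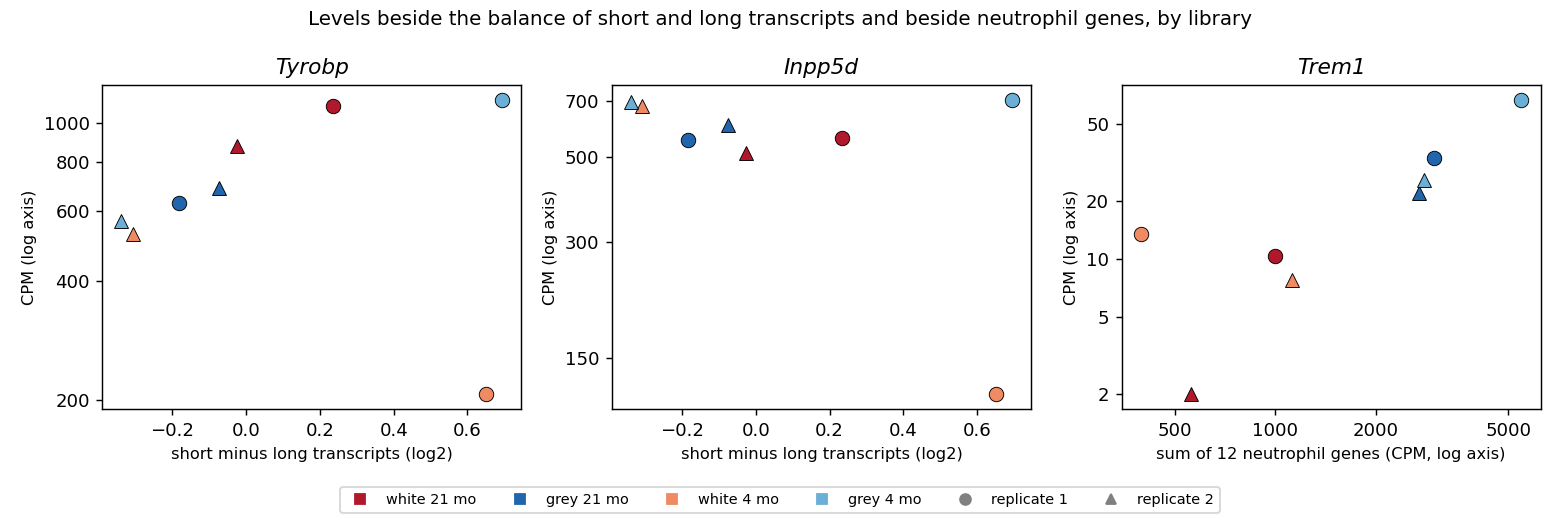
Tyrobp and Inpp5d levels against the balance of short and long transcripts of each library (log2, left and middle), and Trem1 against the summed level of 12 neutrophil genes (CPM, log axes, right); each point is 1 of the 8 libraries, coloured by group. Tyrobp runs from 526 CPM to 1147 CPM along the balance in 7 libraries, Inpp5d stays between 510.3 and 704 CPM in them, and the 4 grey matter libraries stand highest for both Trem1 and the neutrophil genes.

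Scaling moved these values. When each library was scaled to its counts of 10 microglia genes (among them Csf1r, C1qa, C1qb and C1qc), the median log2 fold change of all genes shifted to -0.27 between the regions at 21 months, 1.52 between them at 4 months, -1.50 in white matter aging and 0.26 in grey matter aging. Per 1000 counts of these genes, Trem2 had 17.0 and 14.5 counts in old white matter, 12.9 and 12.5 in old grey matter, 17.2 and 16.3 in young white matter, and 15.4 and 15.6 in young grey matter. On this scale the first young white matter library lay beside the others, old grey matter was the lowest group, and the 4-month region difference of Trem2 had the opposite sign, 0.11 against -1.06 under TMM. Tyrobp had 54.6 and 46.3 counts in old white matter, 43.3 and 38.5 in old grey matter, 51.6 and 37.4 in young white matter, and 48.0 and 34.6 in young grey matter. Its groups overlapped except for the old libraries, where white matter stayed above grey matter.

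Ratios of counts inside a library do not depend on scaling between libraries. Trem2 had 31.2 and 31.4 counts per 100 Tyrobp counts in old white matter and 29.8 and 32.4 in old grey matter. Young white matter had 33.4 and 43.5, and young grey matter 32.0 and 45.2. The receptor and its adaptor thus stood at 29.8 to 33.4 per 100 in 6 libraries, and the 2 libraries above that, the second of each young group, were also those with the lowest balance of short to long transcripts. The root-mean-square difference of their centred log2 levels over the 7 libraries was 0.229, the second smallest of the 28 pairs among the 8 genes.

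**Figure D3:**
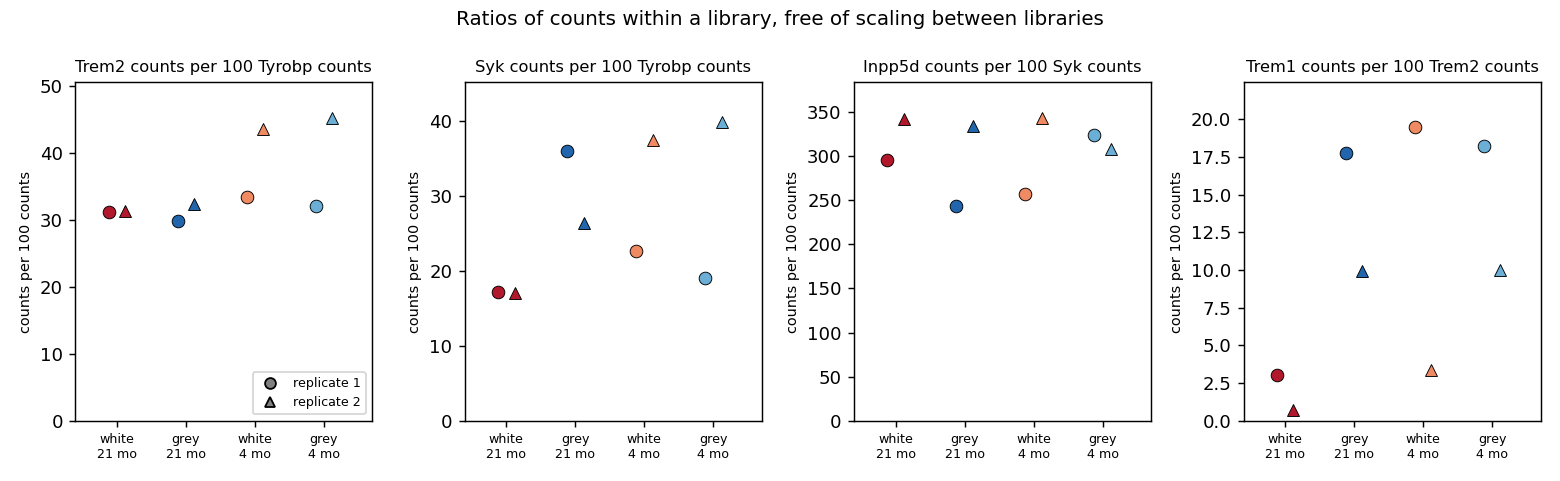
Counts of 1 gene per 100 counts of another within each library, by group, from 0; circles are replicate 1 and triangles replicate 2. Trem2 per Tyrobp runs from 29.8 to 45.2, Syk per Tyrobp is lowest in old white matter (17.1 in both libraries), Inpp5d per Syk runs from 244 to 344, and Trem1 per Trem2 from 0.724 to 19.5.

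Trem1, the inflammatory receptor, varied more than any other member. It had 44 and 8 counts in 21-month white matter, or 10.4 and 1.99 CPM, against 169 and 79 counts in 21-month grey matter, or 33.5 and 22.1 CPM. Young white matter had 37 and 31 counts, or 13.4 and 7.78 CPM, against 384 and 140 counts in young grey matter, or 67.0 and 25.6 CPM. White matter lay below grey matter at both ages with no overlap, and its highest and lowest library differed by 33.7 times. In order of the means, young grey and old grey matter overlapped, young white and old white matter overlapped, and the grey matter groups stood apart from those of white matter.

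The log2 fold change of Trem1, white over grey matter, was -2.16 ± 0.81 at 21 months (unadjusted p = 0.0315, adjusted p = 1) and -2.16 ± 0.71 with the 21-month libraries alone (adjusted p = 0.337). At 4 months it was -2.13 ± 0.80 (unadjusted p = 0.0317, adjusted p = 0.518), and -2.54 ± 1.05 without the first white matter library (adjusted p = 0.92). With no filter on low counts the 4-month value was -2.20 and passed (adjusted p = 0.00782), where 0.35% of 32865 genes were called lower; scaled to the microglia genes it was -0.21 and did not pass. Aging gave -0.76 ± 0.81 in white matter, or -0.32 ± 1.01 without the first young white matter library, and -0.74 ± 0.76 in grey matter, and the libraries of the ages overlapped in both.

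Neutrophil markers were likewise lower in the white matter than in the grey matter libraries. The 12 neutrophil genes summed to 998 and 557 CPM in old white matter, 2997 and 2705 CPM in old grey matter, 395 and 1123 CPM in young white matter, and 5474 and 2788 CPM in young grey matter. All 12 lay below 0 in white over grey matter at both ages, with medians of -3.27 at 21 months and -2.91 at 4 months, against 0.02 and 0.01 for all genes. With the 21-month libraries alone 4 of them were called lower (Cxcr2, Lcn2, Mmp8 and Mmp9, named after their values were seen). Of all genes, 0.591% were called lower in that fit. Csf3r made up most of the sum in old white matter, with 674 and 473 CPM there, against 652 and 721 CPM in old grey matter. Ly6g, a defining marker, was at 0 in the second old and the first young white matter library. The 10 monocyte genes summed to 64.7 to 243 CPM in white matter and to 393 to 666 CPM in grey matter libraries, with none at 0. The part of neutrophils and monocytes in the Trem1 difference was not tested. Among the 5 genes whose pattern was most like that of Trem1 over 7 libraries, of 7789 candidates, were Hdc, Hp, Ifitm6 and S100a9, with root-mean-square differences of 0.321 to 0.428 in centred log2 level; S100a9 is in the neutrophil list used here. Per 100 Trem2 counts, Trem1 had 3.02 and 0.724 in old white matter, against 17.8 and 9.95 in old grey matter, and 19.5 and 3.40 in young white matter, against 18.3 and 10.02 in young grey matter. Trem1 overlaps an annotated gene on the other strand, AC241601.2, which is not among the genes of the deposited table. Whether counting used strand is not given in the sources used here.

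Treml2 had low levels, with group means from 14.4 CPM in young white matter to 25.4 CPM in old white matter. It was measured at 23.7 and 27.1 CPM in 21-month white matter, 15.4 and 24.6 CPM in 21-month grey matter, 13.1 and 15.8 CPM in young white matter, and 24.6 and 18.8 CPM in young grey matter. All neighbours in the order of the means overlapped. Old white matter lay above young white matter without overlap, by 0.81 ± 0.40 on the log2 scale (adjusted p = 0.625), or 0.67 ± 0.41 without the first young library. White over grey matter was 0.34 ± 0.39 at 21 months and -0.59 ± 0.40 at 4 months (adjusted p = 1 and 0.714), the second being -0.44 ± 0.41 without that library, and grey matter aging gave -0.12 ± 0.39.

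Hcst, the DAP10 adaptor, was near the limit of detection, with 6 to 34 counts per library. Its levels were 7.57 and 5.21 CPM in old white matter, 2.57 and 5.30 CPM in old grey matter, 2.18 and 2.26 CPM in young white matter, and 5.93 and 2.01 CPM in young grey matter. The exact Poisson interval (95%, counting error only) ran from 5.18 to 10.7 CPM in the highest library and from 1.00 to 3.60 CPM in the lowest. Old white matter lay above young white matter in both libraries, by 1.51 ± 0.77 on the log2 scale (adjusted p = 0.625), and by 1.48 ± 0.92 without the first young library. The other 3 comparisons overlapped, with 0.71 ± 0.73 for white over grey matter at 21 months, -0.83 ± 0.76 at 4 months (-0.78 ± 0.91 without that library) and -0.03 ± 0.73 for aging in grey matter. Markers of NK and T cells, which use DAP10, summed to 13.4 to 33.3 CPM over 10 genes, with up to 3 of them at 0 in a library. Hcst counts were 0.356 to 1.05 per 100 Tyrobp counts.

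Syk, Plcg2 and Inpp5d, the kinase, the lipase and the phosphatase below the adaptor, varied less in CPM after TMM than the other 5 genes once the first young white matter library was set aside. Over the other 7 libraries the highest and the lowest differed by 1.52 times for Syk, 1.35 times for Plcg2 and 1.38 times for Inpp5d, against 1.95 for Trem2, 2.18 for Tyrobp, 1.75 for Treml2, 3.76 for Hcst and 33.7 for Trem1. This order depended on the scaling. Per 1000 counts of the microglia genes, the same 7 libraries ran from 12.5 to 17.0 for Trem2 and from 1.03 to 1.43 for Treml2, narrower in proportion than 7.90 to 15.5 for Syk, 3.89 to 7.65 for Plcg2 and 27.0 to 48.1 for Inpp5d.

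Syk was measured at 189 and 149 CPM in old white matter, 227 and 181 CPM in old grey matter, 46.9 and 197 CPM in young white matter, and 218 and 225 CPM in young grey matter. All neighbours in the order of the means overlapped. White over grey matter was -0.27 ± 0.61 at 21 months and -0.86 ± 0.62 at 4 months on the log2 scale (adjusted p = 1 and 0.733), and the 4-month value was -0.16 ± 0.28 without the first young white matter library. White matter aging gave 0.47 ± 0.62, which turned to -0.23 ± 0.28 without that library, and grey matter aging -0.12 ± 0.61. Per 100 Tyrobp counts, Syk had 17.1 in each old white matter library, against 35.9 and 26.4 in old grey matter. At 4 months it had 22.7 and 37.4 per 100 in white matter, against 19.0 and 39.9 in grey matter, which overlap. Syk, at 5363 nt, is a long transcript beside Tyrobp, and the ratio was 17.1 to 22.7 in the 4 libraries with the highest balance of short to long transcripts and 26.4 to 39.9 in the other 4. The part of transcript length in this ratio was not tested.

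Plcg2 was measured at 115 and 123 CPM in old white matter, 105 and 109 CPM in old grey matter, 16.7 and 106 CPM in young white matter, and 93.0 and 125 CPM in young grey matter. Both old white matter libraries lay just above both old grey matter libraries, by 0.16 ± 0.71 on the log2 scale (adjusted p = 1), and by 0.15 ± 0.16 with the 21-month libraries alone (adjusted p = 0.828). The 4-month region value was -0.82 ± 0.72, or -0.02 ± 0.28 without the first young white matter library, and white matter aging 0.95 ± 0.72, or 0.15 ± 0.28. Grey matter aging gave -0.03 ± 0.71. The gene Gm27361, annotated on the other strand within Plcg2, had a count of 0 in every library.

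Inpp5d, which encodes SHIP1, was measured at 559 and 510.3 CPM in old white matter, 553 and 604 CPM in old grey matter, 120.3 and 676 CPM in young white matter, and 704 and 696 CPM in young grey matter. Both libraries of old grey matter lay below both of young grey matter, and the region values at 21 months overlapped. White over grey matter was -0.11 ± 0.72 on the log2 scale at 21 months (adjusted p = 1) and -0.81 ± 0.72 at 4 months (adjusted p = 0.785), or -0.03 ± 0.26 without the first young white matter library. Aging gave 0.42 ± 0.72 in white matter, turning to -0.35 ± 0.26 without that library, and -0.28 ± 0.72 in grey matter. Inpp5d counts per 100 Syk counts were 295 and 342 in old white matter, 244 and 334 in old grey matter, 257 and 344 in young white matter, and 324 and 309 in young grey matter. The groups overlapped, and over 7 libraries Inpp5d and Syk had the smallest difference of any pair of members, 0.161. Inpp5d per 100 Tyrobp counts was 50.7 and 58.3 in old white matter, against 87.6 and 88.2 in old grey matter. At 4 months it was 58.2 and 128.7 in white matter, against 61.4 and 123 in grey matter, which overlap. The 4 libraries with the highest balance of short to long transcripts held 50.7 to 61.4 and the other 4 held 87.6 to 128.7, and the part of transcript length in this ratio was not tested.

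**Figure D4:**
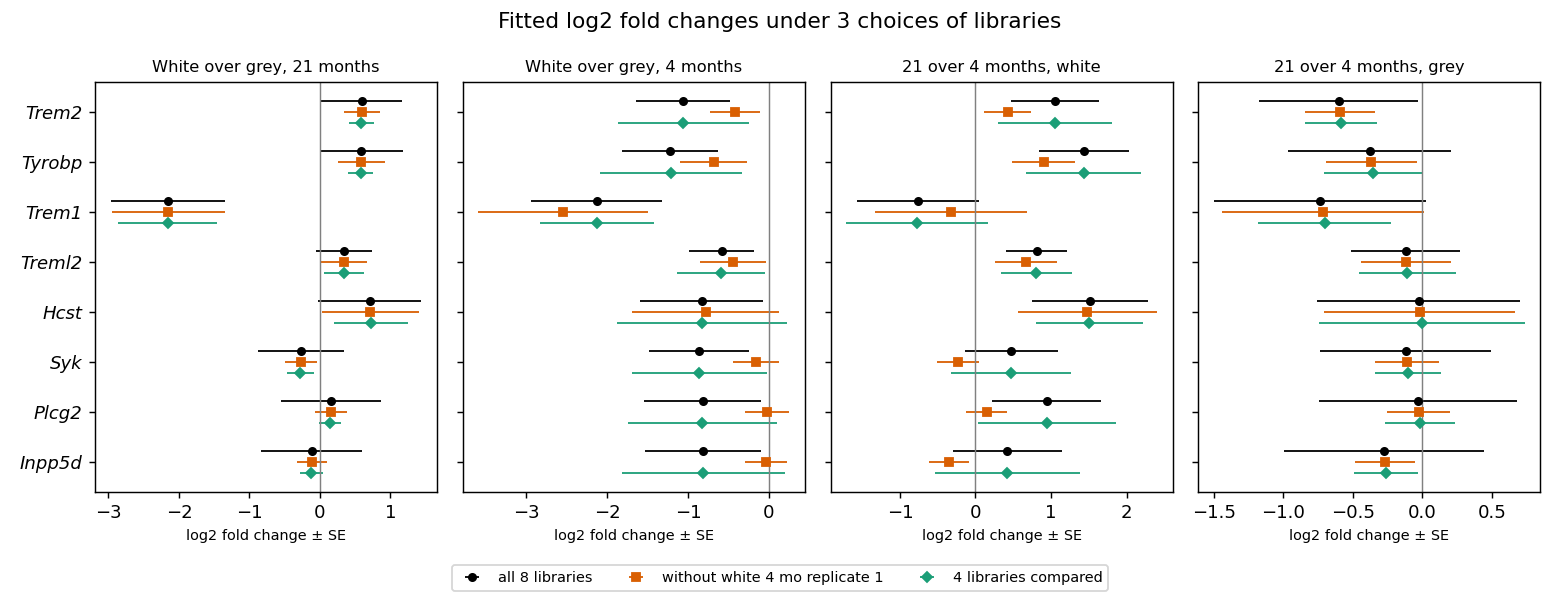
Fitted log2 fold changes with standard errors for the 8 genes in 4 comparisons, white over grey matter and 21 over 4 months; circles use all 8 libraries, squares leave out the first 4-month white matter library and diamonds use only the 4 libraries compared. For white over grey matter at 21 months Trem2 and Tyrobp lie at 0.59 and 0.59 and Trem1 at -2.16, and in the 2 comparisons that hold young white matter the values of Syk, Plcg2 and Inpp5d move toward or past 0 without its first library.

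By the overlap of single libraries, 3 members were higher in white matter in both libraries at 21 months (Trem2, Tyrobp and Plcg2) and 1 was lower (Trem1), where 21% and 19.5% of all genes did so. At 4 months 0 were higher and 6 lower, against 13.8% and 15.2% of genes; these were Trem2, Tyrobp, Trem1, Treml2, Syk and Inpp5d. In white matter aging 5 were higher and 0 lower (Trem2, Tyrobp, Treml2, Hcst and Plcg2), against 19.7% and 15.6%. In grey matter aging 0 were higher and 2 lower (Trem2 and Inpp5d), against 17.5% and 17.1%. The median log2 fold change of the 8 genes was 0.25, -0.85, 0.88 and -0.20 in these comparisons, against 0.02, 0.01, 0.02 and -0.02 for all genes tested. Without the first young white matter library the 4-month and the white matter aging medians were -0.43 and 0.29. The 10 microglia markers had medians of -0.38, -1.13, 0.47 and -0.30 in the same comparisons, with all 10 below 0 between the regions at 4 months and all 10 above 0 in white matter aging. Without that library their 4-month and white matter aging medians were -0.40 and -0.22. The part of microglial RNA content in the members' medians was not tested. The comparisons share libraries, so these counts are not independent of each other. When the second young white matter library was left out instead, Trem2, Tyrobp, Syk, Plcg2 and Inpp5d were called lower in white matter at 4 months, higher with age in white matter, and in the difference of the aging changes. There 12%, 12.9% and 7.73% of 17859 genes were called in the same directions, and young white matter was represented by the library rich in oligodendrocyte transcripts alone.

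For the 6 genes other than Trem2 and Tyrobp, the aging changes differed between the regions by -0.03 ± 1.03 for Trem1, 0.93 ± 0.56 for Treml2, 1.54 ± 1.06 for Hcst, 0.59 ± 0.87 for Syk, 0.97 ± 1.01 for Plcg2 and 0.70 ± 1.01 for Inpp5d (log2, white minus grey matter, adjusted p = 1 for each). Without the first young white matter library these were 0.39, 0.78, 1.4998, -0.11, 0.17 and -0.08, so the sign turned for Trem1, Syk and Inpp5d.

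Per kilobase of the longest coding transcript, the order of levels between genes differs from that in CPM. In old white matter Tyrobp had 1657 ± 271 CPM per kb, Trem2 284 ± 45.5, Inpp5d 108 ± 6.96, Syk 31.6 ± 5.27, Plcg2 27.7 ± 1.23, Hcst 14.5 ± 3.77, Treml2 6.37 ± 0.61 and Trem1 2.07 ± 1.99 (SD, n = 2). In old grey matter these were 1102 ± 64.1 for Tyrobp, 188 ± 21.7 for Trem2, 117 ± 7.36 for Inpp5d, 38.0 ± 6.03 for Syk, 24.8 ± 0.59 for Plcg2, 8.91 ± 4.36 for Hcst, 5.02 ± 1.62 for Treml2 and 9.28 ± 2.70 for Trem1. Trem1 thus stood last in old white matter and level with Hcst in old grey matter.

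The pathway around these genes was described with lists chosen with earlier results of these data known, by their counts and medians. Among reported TREM2 ligands, Apoe, a lipoprotein component, rose in old white matter: it had 4468 and 3159 CPM there, against 272 and 247 CPM in old grey matter. Its log2 fold change was 3.87 ± 0.23 with the 21-month libraries alone (adjusted p = 5.69e-05), and 3.88 ± 0.56 in the fit of all libraries, where it did not pass (adjusted p = 0.869). Without the first young white matter library it was 3.88 ± 0.39 and passed (adjusted p = 0.0212). With the 21-month libraries alone Apoe was 1 of 4 tested ligands called, where 0.985% of all genes were called higher. The median of the 4 was 1.67, against 0.01 for all genes. In young white matter Apoe had 532 and 499.7 CPM, against 521 and 262 CPM in young grey matter.

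Of the 11 genes reported to need TREM2 for their induction in the second stage of disease-associated microglia, 6 rose in old white over old grey matter with the 21-month libraries alone and 0 fell. In that fit 0.985% of 14717 genes were called higher and 0.591% lower. The median of the 11 was 1.62, against 0.01 for all genes. Lpl, a lipoprotein lipase, rose by 5.02 ± 0.35 (311.7 and 233 CPM in white, against 11.1 and 5.02 CPM in grey matter). Itgax, which encodes CD11c, rose by 3.003 ± 0.24 and Axl, a receptor for dying cells, by 2.36 ± 0.20 (adjusted p = 0.000454 and 0.000457). Csf1, a growth factor for microglia, rose by 1.62 ± 0.17 (adjusted p = 0.00124), and the other called genes were Cst7 and Cd9. Without the first young white matter library, with all other libraries in the fit, Lpl, Itgax and Csf1 passed (adjusted p = 0.0234, 0.0147 and 0.0486), and in the fit of all 8 libraries 0 of the 11 passed. Beside these, Trem2 and Tyrobp differed by 0.59 and 0.58 in the same 21-month fit. In grey matter aging the median of the 11 was 0.37 with 0 called.

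The DAP12- and DAP10-paired receptors lay mostly below 0 in white over grey matter. Of 13 tested with the 21-month libraries alone, 9 were below 0 and the median was -1.13, against 0.01 for all genes. Of all genes, 0.591% were called lower in that fit. Some of the 13 passed the filter on low counts only through grey matter. Mean counts in old white against old grey matter were 6.5 and 30 for Treml4 and 6 and 36 for Pilrb2. In the fit of the 4 white matter libraries, 7 of the 16 passed. Such genes can hardly lie above 0, so these counts and medians, also at 4 months, partly follow from the filter. Sirpb1b, an activating receptor, had 5 and 5 counts in old white matter, against 61 and 28 counts in old grey matter. With the 21-month libraries alone its log2 fold change was -3.03 ± 0.53, which passed (edgeR, adjusted p = 0.019). It too passed the filter only through grey matter, so its direction partly follows from the filter and no support is drawn from this call. Its reads may also be shared with near-identical Sirpb1 genes, which makes the value uncertain. At 4 months all 15 tested in the fit of all libraries were below 0, with a median of -1.50 and 0 called, and 14 of 15 without the first young white matter library, with a median of -1.08; Pilrb2 had -3.99 ± 1.03 and Sirpb1b -3.06 ± 0.79 (adjusted p = 0.479 for both). In white matter aging 11 of 15 were above 0, with a median of 0.50, or 0.31 without the first young white matter library, and 0 were called. Several of these receptors are known from neutrophils and monocytes, whose marker sums are given above, and their part was not tested.

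Of the 9 genes of TREM2 shedding and intramembrane cleavage, 0 were called in old white over old grey matter. This fit used the 21-month libraries alone, and it called 0.985% of all genes higher and 0.591% lower. The median of the 9 was 0.26, against 0.01 for all genes. Ncstn, a subunit of gamma-secretase, had 0.39 ± 0.16 and Adam10, the main sheddase, 0.26 ± 0.16 (adjusted p = 0.377 and 0.633). Of the 5 Src-family kinases 0 were called in the same fit, with a median of 0.38. Fgr had 0.71 ± 0.27 and Fyn 0.87 ± 0.35 (adjusted p = 0.328 and 0.359).

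With the 21-month libraries alone, 0.985% of 14717 genes were called higher in old white over old grey matter and 0.591% lower. Of 28 adaptors and kinases downstream of SYK, 0 rose and 1 fell in that fit. Their median was 0.03, against 0.01 for all genes. The gene that fell was Prkca, a protein kinase C, by 1.09 on the log2 scale, with 34.1 and 50.4 CPM in old white matter, against 87.9 and 90.4 CPM in old grey matter (adjusted p = 0.0284); in the fit of all libraries it did not pass (adjusted p = 1). Of 19 inhibitors of ITAM signalling, 0 were called, with a median of -0.09. Lilrb4a, an inhibitory receptor, had 0.99 ± 0.25, and Siglece, a sialic acid-binding inhibitory receptor, -0.62 ± 0.16 (adjusted p = 0.134 and 0.11). Of 3 other ITAM adaptors 0 were called; Fcer1g, the Fc receptor gamma chain, had 0.34 ± 0.17 (adjusted p = 0.507). In the fit of all libraries 0 genes of any of these lists were called in any of the 5 comparisons.

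The genes whose pattern over 7 libraries was most like that of each member were also listed, with no statement on shared control. For Trem2 they were Pex13, Sf3a3, Ftl1, Lamtor1 and Mif4gd, at root-mean-square differences of 0.092 to 0.11. Tyrobp was nearest to Rpl19-ps11, Cd68, Tpt1-ps3, Rplp0 and Sh3bgrl3, at 0.049 to 0.107, and Rpl19-ps11 and Tpt1-ps3 are pseudogenes that may share reads with their parent genes. Treml2 was nearest to Bmi1, Elk3, Mcfd2, Fadd and Farsb. The nearest genes of Syk were Zfp592, Eif2s3y, Grk2, Tug1 and Dnase2a, those of Plcg2 Ncoa2, Smc3, Chd8, Baz1b and Bms1, and those of Inpp5d Ap2a2, Hps4, Tmem63a, Sec23b and Dgcr2. Hcst, with a mean under 50 counts, was not compared in this way.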

How the data were processed

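Polyadenylated RNA of CD11b-selected microglia was sequenced on an Ion Proton in 8 libraries, 2 for each of 4 groups. The deposited table holds estimated counts per gene, not normalized by the authors: 15.9 to 17.8% of values above 0 are not whole (tolerance 1e-06), so they were rounded. The submitters' processing notes name Partek and DESeq2; for the aligner, the build, the gene models and strandedness the entry is: not given in the sources used here. Of 51810 genes, 18945 had no count in any library. Genes were filtered with filterByExpr (minimum count 10), scaled by TMM and tested with edgeR 4.0.16 (robust quasi-likelihood, R 4.3.3) in 1 model of the 4 groups, with Benjamini-Hochberg adjustment over the 16237 genes tested and a threshold of 0.05. The SE is the log2 fold change divided by the root of F. Levels are CPM after TMM.

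Alternatives were DESeq2 1.42.0, RLE scaling, no filter, the replicate number as a block, limma 3.58.1 with voom quality weights, scaling to 10 microglia genes, the 4 libraries of a comparison alone, leaving out each library, and a transcript length correction (loess, span 0.5, 15617 genes) added after the data were seen. The scripts were tested on simulated data. The 2 libraries of each group differed by more than sampling noise (chi-square per degree of freedom 5.43 to 172), so none was counted as a duplicate. An exact permutation test of 2 against 2 libraries cannot go below 0.333. Intervals cover counting error only.

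The 8 genes were all named by rule; from each list, up to 4 called genes or, with none called, the 2 with the smallest p were named, and for likeness the 5 nearest genes with a mean of at least 50 counts, leaving out predicted gene models. The members and lists were chosen with earlier results of these data known. Siglech is in both the microglia and the paired-receptor list, Csf1r in the paired-receptor and the scaling list, Lilrb4a among inhibitors and disease-associated genes, and 4 genes are in both microglia lists. Some genes of these lists are not reported here by name. Promoter windows came from RefSeq on GRCm38.p6, and transcript lengths from GENCODE M21.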

Additional observations from a re-analysis of the deposited data

Results flagged for a closer look

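Trem2 had region differences of opposite direction at the 2 ages, with no overlap of libraries: 0.59 ± 0.57 for white over grey matter at 21 months and -1.06 ± 0.58 at 4 months (log2, SE). Its aging changes were likewise opposite, 1.05 ± 0.58 in white and -0.60 ± 0.57 in grey matter. The opposite directions of single libraries were not tested as such; the interaction term was 1.66 ± 0.81 and did not pass (edgeR, adjusted p = 1), and it was 1.02 ± 0.40 without the first young white matter library (adjusted p = 1). Tyrobp had region differences of opposite direction as well, 0.59 ± 0.59 at 21 months and -1.22 ± 0.59 at 4 months, an interaction of 1.81 ± 0.83 (adjusted p = 1), or 1.27 ± 0.53 without that library (adjusted p = 1). Scaled to microglia genes, where the median of all genes was -1.78, the interactions were 0.20 for both genes.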

How the results depend on the processing

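The number of members called stayed at 0 in the 5 comparisons under every alternative except the following. With no filter on low counts it was 1 for white over grey matter at 4 months (Trem1, -2.20, adjusted p = 0.00782). Leaving out 1 library gave 0 to 5 members called for white over grey matter at 4 months, for white matter aging and for the difference of the aging changes, with 5 when the second young white matter library was left out (Trem2, Tyrobp, Syk, Plcg2 and Inpp5d).

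Scaling to microglia genes moved the median of all genes as given above and turned these log2 fold changes: Plcg2 to -0.13 between the regions at 21 months; at 4 months Trem2 to 0.11, Tyrobp to 0.11, Treml2 to 0.98, Hcst to 0.77, Syk to 0.17, Plcg2 to 0.032 and Inpp5d to 0.12; in white matter aging Trem2 to -0.086, Treml2 to -0.72, Syk to -0.57 and Inpp5d to -0.52; in grey matter aging Treml2 to 0.16, Hcst to 0.34, Syk to 0.17 and Plcg2 to 0.21; and in the difference of the aging changes Treml2 to -0.89, Hcst to -0.32, Syk to -0.74, Plcg2 to -0.16 and Inpp5d to -0.51. Hcst in grey matter aging turned to 0.017 with DESeq2, 0.019 with RLE scaling and 0.33 with the length correction, and Trem1 in the difference of the aging changes to 0.052 with no filter. The cause was not tested.

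Leaving out 1 library, the ranges that crossed 0 were -1.42 to 0.125 for Hcst at 4 months; -0.227 to 1.88 for Syk and -0.351 to 2.18 for Inpp5d in white matter aging; in grey matter aging -0.802 to 0.213 for Tyrobp, -1.27 to 0.112 for Trem1, -0.497 to 0.175 for Treml2, -0.627 to 0.942 for Hcst, -0.295 to 0.0251 for Syk and -0.234 to 0.2 for Plcg2; and in the difference of the aging changes -1.68 to 0.738 for Trem1, -0.113 to 2 for Syk and -0.0815 to 2.46 for Inpp5d.

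With the replicate number as a block 0 members were called in the 5 comparisons, and in grey matter aging Hcst was 0.0699 and Plcg2 0.018. The labels do not say that a number marks a shared animal or batch. Same-numbered deviations correlated at 0.059, -0.02 and -0.089 in 3 of the pairs of groups compared, but at 0.419 between the young groups, whose first libraries both had a high balance of short to long transcripts (0.65 and 0.69) and whose second libraries a low one (-0.31 and -0.34). At 6 to 34 counts, Hcst is limited by depth.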
